A study of Mus musculus with 8 samples.

Results

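The genes described here are 7 genes of the podocyte, the epithelial cell that wraps the capillaries of the kidney glomerulus: Nphs1, Magi2, Ptpro, Plce1, Podxl, Synpo and Wt1. They were chosen by symbol from the 52195 genes of the bulk table, and all 7 were present in it. Their levels were compared over 4 mouse tissues, to see which of them were found mainly in kidney and which were also high in lung, and between the 2 kidney libraries. The tissues were kidney, lung, liver and small intestine of male mice of the inbred strain C57BL/6J, aged 6 to 10 weeks, with no treatment and no engineered allele named in the labels, and there were 2 libraries per tissue and 8 in all. The 2 libraries of a tissue came from separate mice, and each mouse gave all 4 tissues. Whole organs were ground and polyadenylated RNA was sequenced, so a value is an average over all cells of the organ. A lower value can come from fewer cells of a type or from less RNA per cell, and these cannot be told apart. Levels are given as the deposited FPKM, fragments scaled to exon length and library size, so that levels of different genes may be compared within a library. Between libraries, and above all between kidney and lung, differences moved with the scaling, and results after other scalings are given beside them.

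Podocytes send out interlocking foot processes, and the gaps between them are bridged by the slit diaphragm, a thin junction that holds back plasma proteins while water and small solutes pass. Nephrin, the product of Nphs1, spans this gap, and scaffold and adaptor proteins tie it to the actin bundles of the foot process. The foot processes rest on a basement membrane whose other side faces a fenestrated endothelium. Several of the genes are not private to podocytes. Podocalyxin is also made by vascular endothelium, synaptopodin by neurons and other actin-rich cells, and WT1 by mesothelium.

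Podocytes are a small share of the kidney, and the values are low. In kidney, the number of reads behind a value was between 691 and 2761 for Podxl and between 27 and 647 for the other 6 genes. The total was 9164187 to 21444675 reads per library. Reads were recovered from the FPKM values, and all 56 values of the 7 genes came out whole within 0.02 reads or at 0. A filter of 1 FPKM in at least 2 libraries left 3 of the 7 genes (Podxl, Synpo and Plce1) among 16328 genes, Plce1 through its lung libraries alone, so for the other 4 the results rest on limma-voom on the recovered reads. That test covered 7 of 7 genes among 18109, and exact permutation tests of single genes were also run. Calls required an adjusted p (Benjamini-Hochberg, over all genes of the fit) under 0.05 together with a log2 difference beyond 1 in either direction. The tissue labels were checked with marker genes. The summed FPKM of 9 proximal tubule markers reached 18239 and 34381 in the kidney libraries but at most 220 in the other 6, and that of 6 alveolar type 1 markers was 1520 and 1831 in lung and at most 37.9 elsewhere.

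Promoters from RefSeq (build GRCm38.p6) were found for 4 of the 7 genes, Nphs1, Ptpro, Plce1 and Magi2. None was found for Podxl, Synpo and Wt1. Shown here are 3 genes with unlike patterns over the tissues: Nphs1, which was nearly limited to kidney, Ptpro, which was read in kidney and lung, and Plce1, which was highest in lung. Each run is the 250 bases before the RefSeq start site on the plus strand, at chr7:30459808-30460057 for Nphs1, chr6:137252049-137252298 for Ptpro and chr19:38523947-38524196 for Plce1. The RefSeq start lies 1743 bases inside the GENCODE span of Nphs1 given below and 43088 bases inside that of Plce1, so these runs stand before a start within the gene, while that of Ptpro is 20 bases before its span. Capitals mark a match to GTGGGNG, the core bound by WT1.
Nphs1: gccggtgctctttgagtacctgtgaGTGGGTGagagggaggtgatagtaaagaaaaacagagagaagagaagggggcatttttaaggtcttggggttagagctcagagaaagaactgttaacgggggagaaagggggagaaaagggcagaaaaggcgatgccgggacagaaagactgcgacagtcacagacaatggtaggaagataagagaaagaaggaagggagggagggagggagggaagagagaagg
Ptpro: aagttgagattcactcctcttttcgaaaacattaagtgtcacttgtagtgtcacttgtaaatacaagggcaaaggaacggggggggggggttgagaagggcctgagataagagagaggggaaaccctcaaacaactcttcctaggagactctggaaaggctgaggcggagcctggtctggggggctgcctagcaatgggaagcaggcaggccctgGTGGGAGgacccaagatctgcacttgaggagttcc
Plce1: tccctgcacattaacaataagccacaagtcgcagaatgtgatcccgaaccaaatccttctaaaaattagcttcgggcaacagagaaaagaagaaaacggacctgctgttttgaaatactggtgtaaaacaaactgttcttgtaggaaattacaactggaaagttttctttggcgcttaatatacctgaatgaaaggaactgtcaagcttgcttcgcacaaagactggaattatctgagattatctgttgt
The Nphs1 run holds 1 such match, starting at position -225 from the start site, the Ptpro run holds 1 at position -35 and the Plce1 run none. GTGGGNG was found in 28.1% of all 32851 promoter runs of this length, so a match is common. The other letters searched were TAATTA (homeodomain factors such as LMX1B, 4.84% of all runs) and CAGCTG (an E-box, 13.0%), on both strands, and neither was in these 3 runs. No match overlapped another.

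Nphs1 was read in kidney and hardly elsewhere. Its FPKM values were 2.51 and 0.846 (357 and 97 reads) in the kidney libraries, 0.0464 and 0.109 (3 and 9 reads) in the lung libraries, 0.0165 and 0 (1 and 0 reads) in the liver libraries and 0 and 0.0133 (0 and 1 reads) in the small intestine libraries. Both kidney libraries lay above all other 6. In liver replicate 2 and small intestine replicate 1, 3 reads would be an FPKM of 0.0439 and 0.0484, so absence is not shown there. Kidney averaged 1.68 ± 1.18 (SD, n = 2) and lung 0.0779 ± 0.0445 (SD, n = 2), a ratio of 21.6. Nphs1 passed the minimum of 10 reads in 2 libraries only through the kidney libraries, so its fitted difference from lung on reads, 5.39 on the log2 scale (standard error 0.76), is given as a description. By limma without a filter on low values kidney was above lung by 1.24 on the log2(FPKM + 1) scale (adjusted p = 0.0115). On reads lung did not differ beyond its spread from liver (adjusted p = 0.463) or small intestine (adjusted p = 0.178). The gene lies on chromosome 7 (30458315 to 30487223, GRCm38), and 11.8% of its exon length is shared with a pseudogene and an antisense gene, Nphs1os, on the other strand. The library kit does not mark strand, so reads there cannot be told apart. Nphs1os itself was listed at 0 in all 8 libraries.

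Wt1, the zinc-finger transcription factor that keeps podocytes in their mature state, had a similar order of tissues with lung next. Its FPKM values were 1.43 and 0.550 (190 and 59 reads) in the kidney libraries, 0.512 and 0.273 (31 and 21 reads) in the lung libraries, 0 and 0.0156 (0 and 1 reads) in the liver libraries and 0.0690 and 0.0570 (4 reads each) in the small intestine libraries. Both kidney libraries were above the other 6, but the lower kidney value exceeded the higher lung value by little. On reads, kidney was above lung by 2.47 on the log2 scale (standard error 0.49, limma-voom, adjusted p = 0.00176) and lung was above liver by 3.12 (adjusted p = 0.0085). Lung and small intestine did not differ beyond their spread (adjusted p = 0.0842), nor did small intestine and liver (adjusted p = 0.23). The summed FPKM of 5 mesothelial markers was 30.8 and 28.2 in kidney, 126 and 97.2 in lung, and 1.60 to 8.21 in liver and small intestine. In kidney 1 gene, Gpm6a, made up most of the sum, at 28.5 and 26.8. The other 4 summed to 2.32 and 1.48 in the kidney libraries, below the 6.14 and 7.22 of small intestine and the 106 and 76.2 of lung, while the liver libraries had 1.26 and 0.564. Lrrn4 had 1 read in each kidney library, which is under the floor of 3 reads, and Upk1b was at 0 in both liver libraries. The sum was highest in lung with and without Gpm6a, and its part in the lung value of Wt1 was not tested. Nphs1 and Wt1 were the 2 genes with both kidney libraries above the other 6, a pattern found in 6.84% of the 30154 genes above 0. Wt1 lies on chromosome 2 (105126529 to 105173616). An exact two-sided permutation test, which compared every choice of 2 of the 8 libraries, gave p = 0.0357 for each, the smallest p this design allows.

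Ptpro, a receptor tyrosine phosphatase of the foot process surface, was read at like FPKM levels in kidney and lung. The values were 1.19 and 0.662 in the kidney libraries, 0.685 and 0.934 in the lung libraries, 0.0649 and 0.0720 in the liver libraries and 0.286 and 0.197 in the small intestine libraries. The kidney and lung libraries overlapped, and all 4 stood above liver and small intestine. The ratio of the kidney mean to the lung mean was 1.15 in FPKM. It was 2.39 when each library was scaled by the median of its ratios to the typical library (median-of-ratios scaling), and on reads kidney was higher than lung by 1.29 on the log2 scale (standard error 0.29, limma-voom, adjusted p = 0.00419). The exact permutation test of kidney against the other 6 libraries gave p = 0.143. The gene lies on chromosome 6 (137252319 to 137463233).

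Magi2, a scaffold protein that binds the nephrin complex from inside the cell, varied between libraries of the same tissue. Its FPKM values were 0.649 and 1.25 in the kidney libraries, 0.893 and 0.518 in the lung libraries, 0.183 and 0.393 in the liver libraries and 0.00941 and 0.0545 in the small intestine libraries. Kidney and lung overlapped, liver lay just below them, and small intestine was lowest, with 1 and 7 reads. On reads kidney was above lung by 1.49 on the log2 scale (standard error 0.52, limma-voom, adjusted p = 0.0338) and above small intestine by 5.27 (adjusted p = 0.00157), while kidney and liver did not differ beyond their spread (adjusted p = 0.21). Lung and liver were not told apart either (adjusted p = 0.727). The exact permutation test of kidney against the other 6 gave p = 0.107. The call against lung was lost without kidney replicate 2 (0.89), lung replicate 1 (1.84, adjusted p = 0.0505) or lung replicate 2 (1.07). Magi2 lies on chromosome 5 (19227036 to 20704792), and an overlapping gene, Gm29254, shares 1.79% of its exon length.

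Podxl, which encodes podocalyxin, the negatively charged sialomucin that keeps foot processes apart, had the highest FPKM of the 7 in kidney, lung and liver and was higher in lung than in kidney. Its FPKM values were 23.5 and 7.27 in the kidney libraries, 48.9 and 50.5 in the lung libraries, 0.915 and 0.759 in the liver libraries and 2.26 and 1.54 in the small intestine libraries. The lung values were above both kidney values, which were above those of small intestine and liver, and no 2 tissues overlapped. Kidney averaged 15.4 ± 11.4 (SD, n = 2) and lung 49.7 ± 1.17 (SD, n = 2), a lung-to-kidney ratio of 3.23. On the log2(FPKM + 1) scale kidney was lower than lung (-1.83, standard error 0.44, limma, adjusted p = 0.00667), and lung was above the mean of liver and small intestine by 4.46. The difference from lung was -2.62 without kidney replicate 1 and -1.05 without kidney replicate 2. The kidney-to-lung call was lost with median-of-ratios scaling (-0.77, adjusted p = 0.0861) and on reads (-0.79, adjusted p = 0.0747). Lung was the tissue with the highest levels of endothelial markers: the summed FPKM of 9 such genes was 604 and 761 in lung, 85.2 and 58.6 in kidney and 32.9 to 60.0 in the others, with none at 0 in any library. Of the 9, 8 were highest in lung, and Ehd3 was highest in liver, at 22.5 and 18.5. Their part in the lung level of Podxl was not tested. Podxl lies on chromosome 6 (31519488 to 31563981).

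Synpo, an actin-binding protein of the foot process, was at 3.16 and 1.31 FPKM in the kidney libraries, 5.20 and 5.03 in the lung libraries, 0.149 and 0.213 in the liver libraries and 6.45 and 7.89 in the small intestine libraries. Small intestine was highest and liver lowest, with kidney below lung in every library. On reads small intestine was above lung by more than the spread (lung minus small intestine -1.22 on the log2 scale, standard error 0.26, limma-voom, adjusted p = 0.00356), whereas kidney and lung did not differ beyond it (-0.17, standard error 0.27, adjusted p = 0.628). The summed FPKM of 6 smooth muscle markers was 310 and 254 in small intestine, 252 and 256 in lung, 21.3 and 18.2 in kidney and 4.49 and 4.32 in liver. The sums of small intestine and lung overlapped. On reads all 6 markers were called lower in kidney than in lung, against 26.9% of all genes, but Tagln would not have passed the minimum of reads without lung. Tagln was at 0 in liver replicate 2 and had 1 read in liver replicate 1. The part of these markers in the order of Synpo was not tested.

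Plce1, a phospholipase C that makes second messengers downstream of small GTPases, was lowest of the 7 in kidney. Its FPKM values were 0.280 and 0.0975 (96 and 27 reads) in the kidney libraries, 1.29 and 1.33 in the lung libraries, 0.164 and 0.182 in the liver libraries and 0.434 and 0.580 in the small intestine libraries. Kidney overlapped with liver (kidney minus liver -0.42 on the log2 scale, limma-voom, adjusted p = 0.52) and was below both other tissues. It was lower than lung (-1.75 on the log2 scale of reads, standard error 0.34, adjusted p = 0.00161) and lower than small intestine (-1.11, adjusted p = 0.0325). Lung and small intestine did not differ beyond their spread (adjusted p = 0.113), though both lung libraries lay above the other 6 in FPKM. Podxl and Plce1 were the genes with both lung libraries on top, 2 of 7 beside 37.4% of the 30154 genes above 0. The exact permutation test of lung against the other 6 gave p = 0.0357 for each, which largely restates that order. Plce1 lies on chromosome 19 (38481109 to 38785030).

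**Figure D1:**
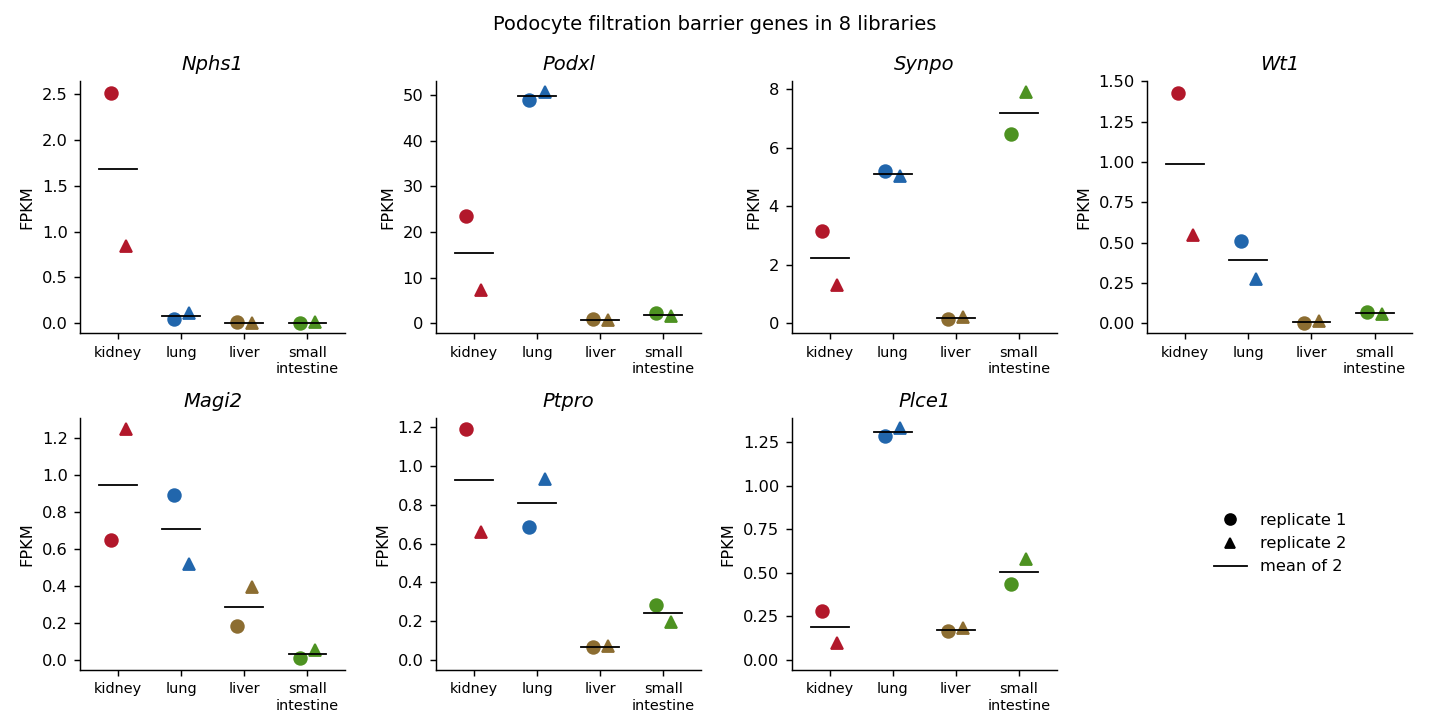
FPKM of each of the 7 genes in the 8 libraries by tissue, on linear axes that differ between genes, with circles for replicate 1, triangles for replicate 2 and a bar at the mean of both. Nphs1 and Wt1 have both kidney points above all others, Podxl and Plce1 have both lung points on top, and Synpo is highest in small intestine.

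Kidney against the mean of the other 3 tissues gave 1 call among the 3 genes that passed the filter, Podxl, which was higher by 1.14 on the log2(FPKM + 1) scale (standard error 0.36, limma, adjusted p = 0.0283), where 8.65% of all genes tested were called higher, and 0 of 3 were called lower, where 16.1% of all genes were. Without kidney replicate 1 the difference of Podxl was 0.36 and not called, and it was 1.08 to 1.13 and also missed the threshold without lung replicate 1, liver replicate 2 or small intestine replicate 2. Plce1 was at -0.43 (adjusted p = 0.00662, within 1 log2 unit) and Synpo at -0.33 (adjusted p = 0.254). Without the filter 1 of 7 genes was called higher, Nphs1 (1.31, adjusted p = 0.00643), against 4.74% of 30154 genes, and after median-of-ratios scaling Podxl (1.51) was, where 12.3% of all genes were. Nphs1 was also past the limits there (1.42), but it passed the filter on that scale only through kidney, so it had to differ. On reads, where all 7 genes could be tested, 5 were called higher in kidney (Nphs1 6.37, Wt1 4.07, Magi2 2.64, Ptpro 2.25 and Podxl 1.98), against 18.4% of all genes, or 4 of 6 without Nphs1, against 16.4% of genes that passed outside kidney, and Plce1 was called lower (-1.09), against 20.5%. The median over the 7 genes was 2.25 and over all genes -0.03. Without either kidney replicate 4 of 6 genes were called higher, since Nphs1 no longer passed the minimum of reads, and without kidney replicate 2 Plce1 was not called lower (-0.66). Synpo, at 0.50 on reads (adjusted p = 0.147), changed sign with the scale and was called on none of them. The value of Nphs1 depends on how counts near 0 are handled, since liver and small intestine held 2 reads in all.

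Against lung alone, 4 of the 7 genes were called higher in kidney on reads, Nphs1, Wt1, Magi2 and Ptpro, against 20.8% of all genes, or 3 of 6 without Nphs1, against 19.1% of genes that passed outside kidney, and Plce1 was called lower, against 26.9%. The median over the 7 genes was 1.29 and over all genes -0.11. Without kidney replicate 2, 2 of 6 genes were called higher, against 19.5% of all genes, and without kidney replicate 1, 2 of 6 were lower, Podxl (-1.42) with Plce1, against 29.7%. With the filter, 0 of the 3 genes tested were called higher by limma (8.87% of all genes), with none above 0 at an unadjusted p under 0.05, and 1, Podxl, lower (41.4%). Without kidney replicate 1 Synpo moved from -0.98 to -1.41 and was called, as were 48.3% of all genes, and without kidney replicate 2 it was at -0.55. Plce1 was at -0.96, and past 1 log2 unit (-1.07) without kidney replicate 1, as a description, since it passed this filter through lung alone. Without the filter 1 of 7 was higher, Nphs1 (1.24, adjusted p = 0.0115), against 4.84%, and 1 lower, Podxl, against 22.3%. After median-of-ratios scaling Nphs1 was called higher (1.39), having passed through kidney alone, and 0 of 3 were lower, against 17.8%. This comparison and the one with the mean of the other tissues share the kidney libraries. The calls depended on the scale. In log2(FPKM + 1) the median gene was lower in kidney than in lung (-0.81), with 1448 genes higher and 6764 lower, and after median-of-ratios scaling the median was at -0.00, with 2780 higher and 2764 lower. Genes of the mitochondrial genome and their nuclear copies took 63.1% and 68.4% of the FPKM sum in kidney and 25.4% and 22.8% in lung. Relative to the median gene, Podxl was at -1.02, Synpo at -0.17 and Plce1 at -0.15. Lung was above the mean of liver and small intestine for Podxl, Wt1, Ptpro and Synpo on reads, 4 of 7 genes against 27.5% of all genes. Synpo lay at the threshold, and without lung replicate 1 only Podxl and Ptpro were called. With the filter it was above for Podxl, 1 of 3 against 41.6%.

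**Figure D2:**
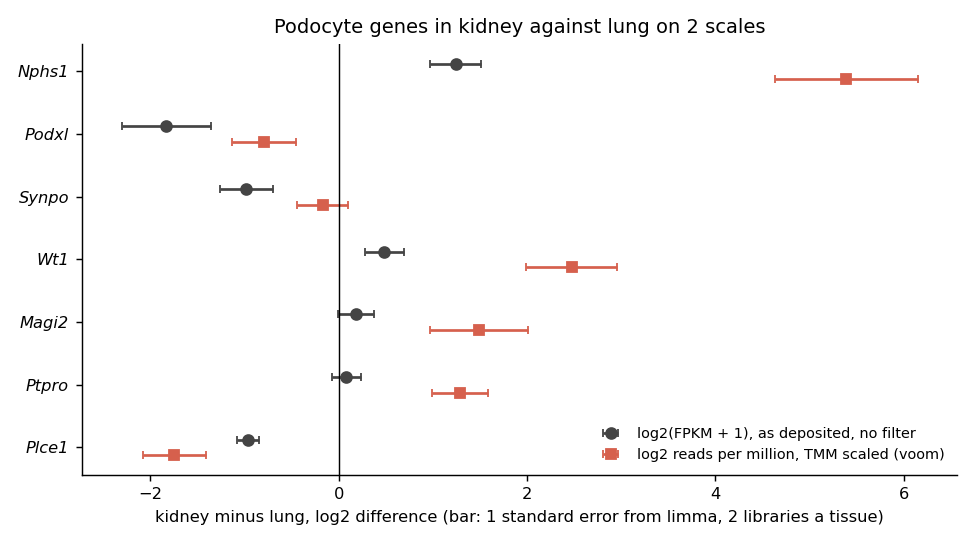
Log2 difference of kidney minus lung for each of the 7 genes from limma without the filter on log2(FPKM + 1) and from limma-voom on recovered reads, with bars of 1 standard error. Nphs1 is at 1.24 and 5.39 and Plce1 at -0.96 and -1.75, and all 7 genes have the same sign on both scales.

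The 2 kidney libraries were far apart for these genes. Replicate 1 was above replicate 2 for 6 of the 7, with FPKM ratios of 3.23 for Podxl, 2.97 for Nphs1, 2.87 for Plce1, 2.60 for Wt1, 2.42 for Synpo and 1.80 for Ptpro. Magi2 went the other way, at 0.521. Intervals of counting error (95%, exact) left out 1 for all 7, for example 2.97 to 3.51 for Podxl, 1.86 to 4.58 for Plce1 and 0.423 to 0.638 for Magi2, but they do not cover differences between mice or preparations. After the scaling described above, that of Ptpro (0.956 to 1.67) held 1. A ratio over 2 was found for 5 of the 7 genes and for 22.8% of the 13091 genes with at least 50 kidney reads, whose median ratio was 1.38. After median-of-ratios scaling the 7 genes were at 2.25 (Podxl), 2.07 (Nphs1), 2.003 (Plce1), 1.81 (Wt1), 1.69 (Synpo), 1.26 (Ptpro) and 0.363 (Magi2), and 5 of 7 were over 1.5, against 19.0% of all genes, whose median was 0.965. On the log2(FPKM + 1) scale a difference over 1 was found for 1 of the 7 genes, Podxl, against 4.91% of all genes. With 1 library each, no test of this difference was possible.

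In lung the same genes showed no such common shift. There the scaled ratio of replicate 1 to replicate 2 was 1.01 for Podxl, 1.08 for Synpo, 1.01 for Plce1, 1.96 for Wt1, 1.81 for Magi2 and 0.768 for Ptpro. Nphs1 had too few lung reads for a ratio. In liver Podxl was at 1.37, Plce1 at 1.02 and Magi2 at 0.529, and in small intestine Podxl was at 1.39, Synpo at 0.776 and Plce1 at 0.710, with too few reads for the other genes. Podxl was thus above 1 in every tissue, and Magi2 was below 1 in kidney and liver and above it in lung.

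**Figure D3:**
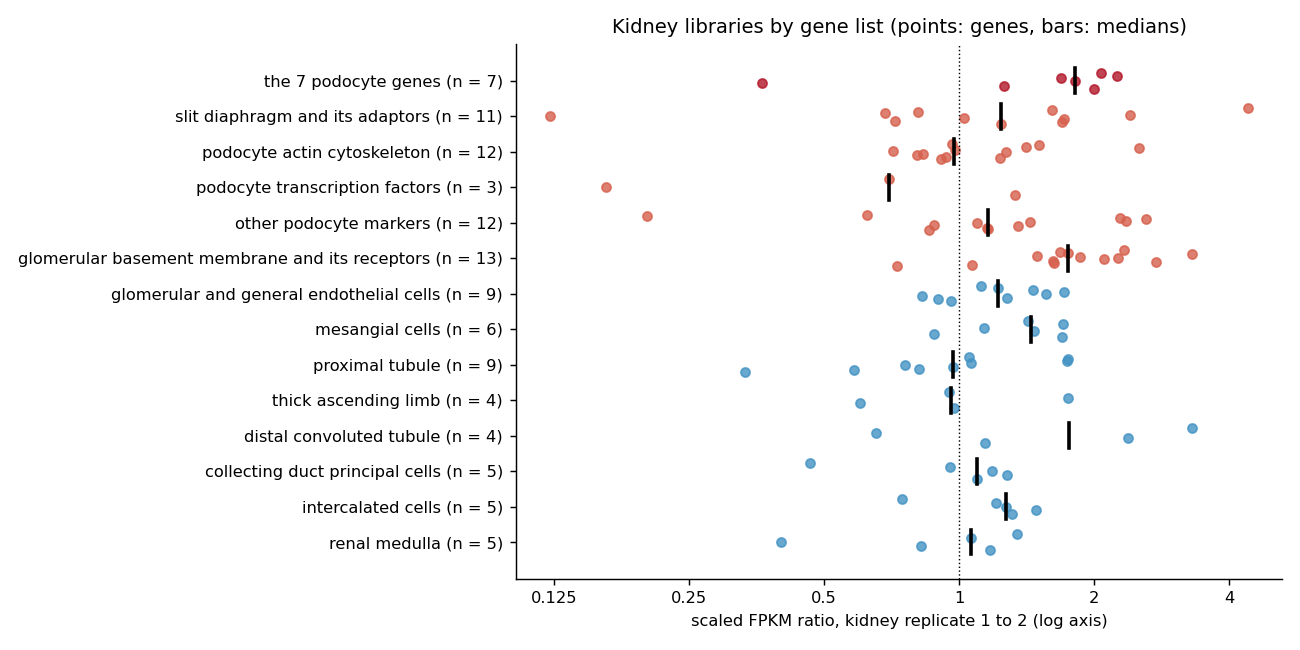
Ratio of FPKM in kidney replicate 1 to replicate 2 after median-of-ratios scaling, on a log axis, with 1 point per gene and a bar at each list's median. The 7 podocyte genes have a median of 1.81 and the basement membrane list 1.75, and the proximal tubule list is at 0.967.

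Other glomerular genes were at unequal ratios. The 13 genes of the glomerular basement membrane and its receptors had a median scaled ratio of 1.75, with 10 over 1.5, and 6 mesangial markers had 1.45. Markers of endothelium were at 1.22, of the thick ascending limb at 0.962, of principal cells at 1.10 and of the proximal tubule at 0.967, while 4 markers of the distal convoluted tubule were at 1.76. The 12 actin cytoskeleton genes of podocytes were at 0.972. The slit diaphragm list was at 1.24 and the further podocyte markers at 1.16, and both spread widely. At their high ends Kirrel, a partner of nephrin, was at 4.39 and Pla2r1 at 2.60, and at their low ends Fyn, a kinase that phosphorylates nephrin, was at 0.123 and Dach1 at 0.201. Of 3 transcription factors with enough reads, Foxc1 was lowest at 0.164 and Foxc2 highest at 1.33.

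The ratio of the kidney libraries went with exon length. Its scaled median was 0.650 over 2405 genes with under 2 kb of exons, 0.851 from 2 to 4 kb, 1.06 from 4 to 6 kb and 1.33 over 3959 genes of 6 kb or more, of which 38.6% were over 1.5. Of the 7 genes, 6 have 6 kb or more (4 of these 6 were over 1.5) and Podxl has 5488 bases. The basement membrane list has a median of 6.94 kb and the proximal tubule list 3.91 kb. The slit diaphragm list has the longest median, 7.81 kb, at a median scaled ratio of 1.24. Magi2, with 11348 bases, had the lowest scaled ratio of the 7 genes, 0.363. Over genes, Pearson's r of log2 ratio with log2 length was 0.442 between the kidney libraries, -0.0218 between those of lung, -0.0486 for liver and -0.241 for small intestine, as a description. The part of length in the ratios of the 7 genes was not tested.

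**Figure D4:**
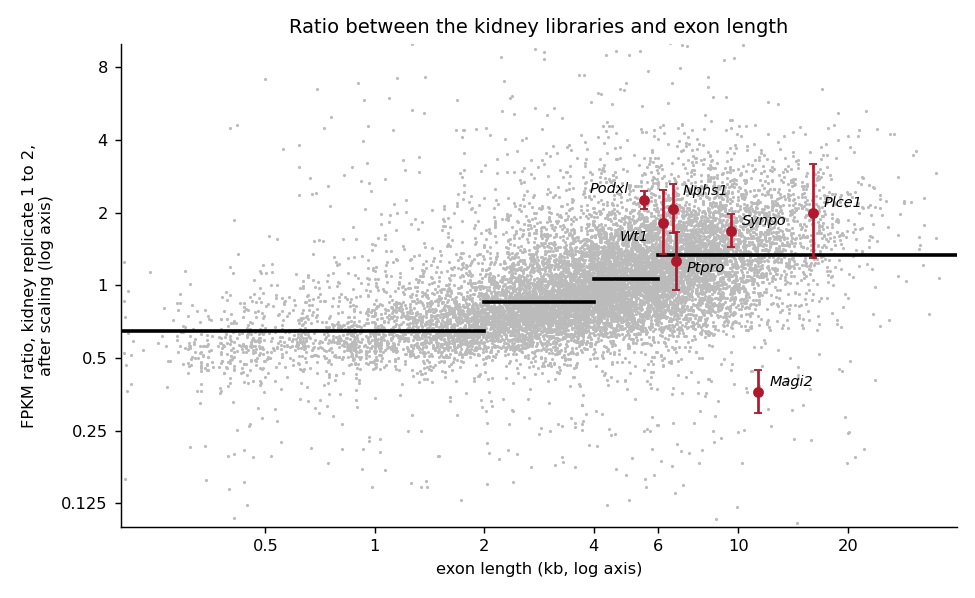
Scaled FPKM ratio of the kidney libraries against exon length in kb, both axes logarithmic, for genes with at least 50 kidney reads and with the 7 podocyte genes named, and 96 genes lying outside the plotted range. The medians climb from 0.650 under 2 kb to 1.33 at 6 kb or more.

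The other genes of the barrier were taken from lists of the slit diaphragm, the cytoskeleton, the basement membrane, transcription factors and further podocyte markers. Of 14 slit diaphragm and adaptor genes, 12 passed the filter. By limma, 0 of them were higher in kidney than in the average of lung, liver and small intestine, also at an unadjusted p under 0.05, and 1, Tjp1, was lower, where 8.65% and 16.1% of all genes were. Against lung 0 were higher by limma, with none above 0 and 11 below 0 at an unadjusted p under 0.05, and 8 of 12 were lower, against 41.4% of all genes. Kirrel and Trpc6 were among the 8 and passed the filter only through lung, where they are high. Without such genes 6 of 10 were lower, against 36.5% of the genes that passed outside lung, 2 of 10 after median-of-ratios scaling, against 13.2%, and 3 of 11 on reads, against 22.1%. Tjp1, the tight junction scaffold ZO-1, was at 3.03 and 0.880 FPKM in kidney and 17.1 and 18.6 in lung. Cd2ap, an adaptor between nephrin and actin, had the highest kidney mean of the list, at 15.3 and 6.62, below the 21.01 and 31.5 of small intestine. In kidney replicate 2 Fyn was higher, at 10.01. These adaptors are made in many epithelia. On reads, 0 of 12 were called higher against that average, with none above 0 at an unadjusted p under 0.05, beside 18.4% of all genes. Lower were 2, Tjp1 and Trpc6, beside 20.5%. Trpc6 passed the minimum of reads only through lung, which is part of that average, so its call is a description and Tjp1 remains. Trpc6, a calcium channel, was at 0.0460 and 0.0114 FPKM in kidney and at 4.73 and 5.38 in lung.

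Of 13 cytoskeleton genes, 3 were called higher against the average of the other 3 tissues and 1, Inf2, lower, where 8.65% and 16.1% of all genes were. Rhpn1, 1 of the 3, passed the filter only through kidney, and without it 2 of 12 were higher, against 6.96% of genes that passed outside kidney. On reads, where no such gene was among the calls, 3 were higher and 2, Anln and Inf2, lower, against 18.4% and 20.5%. Arhgap24, which restrains the GTPase Rac, was at 18.1 and 13.0 FPKM in kidney and no higher than 2.58 elsewhere, and its log2 difference was 3.02 (standard error 0.17). Rhpn1 was at 7.79 and 4.27 in kidney and at most 1.09 elsewhere. Ezr, which links membrane to actin, was at 68.7 and 59.6 FPKM in kidney. In FPKM this was below lung (72.9 and 77.2) and small intestine (143 and 243) and above liver alone, at 0.929 and 1.47. Its difference from lung changed sign with the scale, from -0.23 in log2(FPKM + 1) to 0.86 after median-of-ratios scaling. On reads it was 0.90 (limma-voom, adjusted p = 0.0136), within 1 log2 unit and so not called. Against lung, 2 of the 13 were higher and 7 lower, where 8.87% and 41.4% of all genes were, and without Rhpn1 1 of 12 was higher, against 7.23%. After median-of-ratios scaling 2 of 12 were higher, Rhpn1 again through kidney alone, and 4 lower, against 17.9% and 17.8%, and on reads 2 of 13 were higher and 5 lower, against 20.8% and 26.9%.

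Of 13 basement membrane genes, 2 were called higher against the average of the other 3 tissues and 1, Itga3, lower, where 8.65% and 16.1% of all genes were. Median-of-ratios scaling added Col4a5 to those higher, 3 of 13 against 12.3%. On reads 5 were higher (Col4a3, Col4a4, Col4a5, Lama5 and Nid2), against 18.4%, and 0 lower, with 1 below 0 at an unadjusted p under 0.05, against 20.5%, with Itga3 just inside the limit of 1 log2 unit (adjusted p = 0.00591, limma-voom). Col4a3 and Col4a4 encode chains of the mature collagen IV network, and kidney was at 13.8 and 4.14 FPKM for Col4a3 and at 18.2 and 7.57 for Col4a4. Lung was close to kidney for both in FPKM, at 8.83 and 8.53 for Col4a3 and 12.5 and 14.3 for Col4a4. Kidney against lung was not called for either, but the sign changed with the scale. The differences were -0.15 and -0.17 in log2(FPKM + 1), and 0.80 and 0.84 after median-of-ratios scaling. On reads they were 0.94 each (limma-voom, adjusted p = 0.0456 and 0.0102), inside the limit of 1 log2 unit. Against lung 0 of 13 were higher by limma, also at an unadjusted p under 0.05, and 10 lower, against 41.4% of all genes. After median-of-ratios scaling 6 were lower, against 17.8%, and on reads 1, Nid2, was higher and 6 lower, against 20.8% and 26.9%.

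Of 4 transcription factors, 2 passed the filter. By limma 0 were higher in kidney than in the average of lung, liver and small intestine, also at an unadjusted p under 0.05, and 0 were lower, with 1 below 0 at an unadjusted p under 0.05, beside 8.65% and 16.1% of all genes. On reads 1 of 3, Foxc2, was higher and 0 were lower, beside 18.4% and 20.5% of all genes, and against lung on reads Foxc2 was higher (1.80, limma-voom, adjusted p = 0.0469) and Tcf21 lower, beside 20.8% and 26.9%. By limma 1 of the 2, Tcf21, was lower than in lung, beside 41.4%, at 2.88 FPKM in both kidney libraries and at 28.4 and 37.03 in lung. Lmx1b was read mainly in kidney, at 0.306 and 0.0829, and was at 0 to 0.0330 in the other libraries, too low for either test. Of 12 further markers, 11 passed and 2 were called higher, Bmp7 and Npnt, with Efnb1 lower, where 8.65% and 16.1% of all genes were. On reads 4 of 12 were higher (Bmp7, Npnt, Sema3g and Thsd7a), against 18.4%, and 1, Efnb1, was lower, against 20.5%. Against lung 1 of 11, Bmp7, was higher and 7, Npnt among them, were lower, against 8.87% and 41.4%. Nes and Pla2r1 were among the 7 and passed the filter only through lung, and without such genes 5 of 8 were lower, against 36.5%. On reads, where no call rested on such a gene, 2 of 12 were higher and 7 lower, against 20.8% and 26.9%. After median-of-ratios scaling 1 of 10 was higher and 4 lower than in lung, against 17.9% and 17.8%, and Npnt lay just inside the limit of 1 log2 unit. Bmp7 was at 9.92 and 7.88 in kidney and at most 1.52 elsewhere, and Npnt, a matrix protein, was at 26.2 and 16.7 in kidney and 84.1 and 100 in lung. On the log2(FPKM + 1) scale the median difference of the lists from the mean of the other tissues was -0.62 (slit diaphragm), -0.57 (cytoskeleton), -0.17 (transcription factors, 2 genes), -0.29 (further markers) and -0.43 (basement membrane), beside -0.34 over all genes. On reads the medians were -0.40, -0.17, 1.88 (3 genes), 0.58 and -0.08 in the same order, beside -0.03 over all genes, so those of the transcription factors and the further markers changed sign.

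The genes most like each of the 7 over the 8 libraries were ranked by Pearson's r of log2(FPKM + 1), as a description over 8 points that share 4 tissues. Nphs1 was closest to Gm20400 (0.999), Dusp15 (0.998) and C030005K06Rik (0.998), which were at mean FPKM of 3.68, 2.07 and 4.36 in kidney and at most 0.0625 elsewhere. Wt1 was closest to Glis3 (0.992), 2810029C07Rik (0.991) and Slc6a15 (0.991). Podxl had Plcd3 (0.996), Lin52 (0.995) and Epn3 (0.995). For Synpo they were Usp12 (0.997), Mark2 (0.996) and Prkcd (0.996), each with its highest mean in small intestine. Ptpro had Ubxn2b, Far1 and Sufu (each 0.992), and Plce1 had Rasa1, Sept7 and Lrrk1 (each 0.997). Magi2 had no gene above 0.99, and its nearest were Commd3 (0.949), 1110032A03Rik (0.944) and Zfp931 (0.943).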

How the data were processed

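The authors mapped reads to GRCm38 with STAR 2.5.3a and deposited FPKM values, for which they used DESeq2. The counting program and its use of strand are not given in the sources used here. Exon lengths came from GENCODE M21, to which 99.3% of the 52195 symbols matched, and reads were recovered from the steps of the FPKM values. The main test was limma 3.58.1 in R 4.3.3 on log2(FPKM + 1), with all 8 libraries in 1 fit, a trend and Benjamini-Hochberg adjustment, on genes that reached 1 FPKM in 2 or more libraries. This scale understates differences of low genes. The limma-voom alternative used recovered reads, TMM scaling and genes with 10 reads or more in at least 2 libraries. The limma and limma-voom tests were first run on simulated libraries in which known genes had been changed. Python 3.11.15 (pandas 2.3.3, scipy 1.17.1, matplotlib 3.10.9) was used for the rest. A value of 0 or under 3 reads was read as not detectable, and this floor and the intervals cover counting error only. From each list, up to 5 genes with the highest kidney FPKM could be named, and any gene counted where a count was 5 or fewer. Lmx1b, Foxc1, Dach1, Kirrel, Pla2r1, Fyn and Ehd3 were named after their values were seen. The genes and lists were chosen with earlier results of these data known. The results of 2 listed genes and 1 motif are not reported here.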

Additional observations from a re-analysis of the deposited data

How the results depend on the processing

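Of 112 recomputed counts, 87 stayed within 1.5 times the first value, and no value of a single gene changed direction while called. Genes called higher in kidney than in the average of the other 3 tissues numbered 1, and 2 with median-of-ratios scaling or without mitochondrial genes, 5 by limma-voom on recovered reads, and 0 to 1 when 1 library was left out (0 without kidney replicate 1, lung replicate 1, liver replicate 2 or small intestine replicate 2). Genes higher in kidney than in lung numbered 0, and 1 with no filter, with median-of-ratios scaling or without mitochondrial genes, 4 by limma-voom, and 0 to 0 leaving out 1 library. Genes lower in kidney than in lung numbered 1, and 3 with a pseudocount of 0.1 (50.9% of all genes, from 41.4%), 0 with median-of-ratios scaling or without mitochondrial genes, and 1 to 3 leaving out 1 library (3 without kidney replicate 1, where 48.3% of all genes were lower). Both counts of 3 include Plce1, which passed the filter through lung alone. Nphs1 is among the genes higher in kidney, against the average and against lung, with median-of-ratios scaling, without mitochondrial genes and by limma-voom. It passed those filters through kidney alone, so it had to differ there. Genes higher in lung than in the mean of liver and small intestine numbered 1, and 3 with a pseudocount of 0.1 (54.6% of all genes, from 41.6%, with Plce1 again among the 3), 4 by limma-voom, and 1 to 2 leaving out 1 library (2 without small intestine replicate 2). Genes over 1 log2 unit higher in kidney replicate 1 than in replicate 2 numbered 1, against 4.91% of all genes. They numbered 4 with a pseudocount of 0.1, 2 without mitochondrial genes and 3 on the limma-voom scale of reads. No share of all genes is given for these other settings, so their counts are descriptions. With 1 library each, none of them is a test. The filter left 4 genes untested, which limma-voom tested. Limma-voom without 1 library in turn was chosen after seeing the data. Against the average, 4 to 5 genes were higher, beside 17.3% to 19.4% of all genes. There 0 to 1 were lower, beside 17.8% to 21.3%. Against lung, 2 to 4 were higher, beside 19.5% to 21%, and 1 to 2 lower, beside 20.6% to 29.7%. In lung, 2 to 6 were higher than in liver and small intestine, beside 21.1% to 29%. Each of these fits left 1 tissue with 1 library, so their counts are descriptions. For the other changes the cause was not tested. With the replicate number as a block (replicate block), 1 gene was called higher in kidney than in that average, and no other call changed. The labels do not say whether samples of the same number share a mouse, so the numbers were not taken to pair them. Their deviations had r from -0.217 to 0.0528 between tissues, which cannot settle this. Depth limits Nphs1 and Wt1 in liver, where 1 read was found in all for each.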
